A study of Mus musculus with 6 samples.

Results

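Nuclear receptors are transcription factors, many of which are switched by a small fat-soluble ligand such as thyroid hormone, retinoic acid, a steroid or an oxysterol. The family members considered here were 45 mouse genes listed by name and family, without Nr4a2 (Nurr1). Of these, 42 had a row among the 26852 genes of the deposited table, and 35 reached the mean normalized count of 10 needed for testing. Nr1h4 (FXR), Nr2e3 (PNR) and Nr0b2 (SHP) had no row and were not analysed here.

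RNA came from midbrain dissected at embryonic day E14.5 from embryos of 4 litters on a C57BL/6J background (C57Bl/6 in the labels), with 3 libraries per genotype and 2 pooled embryos in each library. The Lmx1b conditional knock-out (cKO) group was Pitx3Cre/+ and carried floxed Lmx1b on both alleles (Lmx1b L/L, fl/fl in the labels), and the control group was Pitx3Cre/+ with unaltered Lmx1b (+/+, wt/wt in the labels). Both groups therefore carried a single Pitx3-Cre allele, and no group without Cre was compared. The paper treats that allele as a lost Pitx3 allele, so both groups also had a single intact copy of Pitx3. Cre is made where Pitx3 is active, that is in mesodiencephalic dopaminergic (mdDA) neurons, so cells outside the Pitx3-positive domain keep Lmx1b in either group. The table gives a mean per genotype, and the read counts of each library were worked back from these means. Libraries are named a, b and c within each genotype, in order of falling size factor (the factor that scales a library for its depth), and a letter pairs no library of one genotype with one of the other.

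A nuclear receptor holds a DNA-binding domain of paired zinc fingers and a ligand-binding domain. The ligand-binding domain gives a docking face to corepressors such as NCOR1 when empty, and to coactivators such as NCOA1 when filled. Many receptors, among them those for thyroid hormone, retinoic acid, oxysterols and fatty acids, bind DNA as a pair with a retinoid X receptor (RXR), whereas steroid receptors leave a chaperone complex and bind as homodimers. Several members have no hormone assigned, such as the COUP transcription factors, the oestrogen-related receptors and the NR4A receptors, whose RNA follows neuronal activity. In the developing midbrain the family is best known for Nurr1, the NR4A receptor on which the dopaminergic transmitter phenotype of mdDA neurons depends.

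The short stretch at the base of the first zinc finger, called the P-box, sets which DNA half-site a receptor reads, so the coding bases of the P-box are shown for examples of the P-box types and for a few relatives. The 18 bases run from the codon of one zinc-holding cysteine, through the next such cysteine, to the last P-box codon, and capitals mark the 3 P-box codons by which the types were grouped here. The codon before the last one also differs in Nr2e1. They were read from GENCODE M21 transcripts on GRCm38.
Thra: tgtGAGGGCtgcaagGGC
Rxrb: tgcGAGGGCtgcaagGGT
Nr2c2: tgtGAAGGTtgcaaaGGT
Nr2f1: tgcGAGGGCtgcaaaAGT
Nr2f2: tgcGAGGGCtgcaagAGC
Nr2f6: tgcGAGGGCtgcaagAGT
Esrrg: tgtGAAGCCtgcaagGCA
Esr2: tgtGAAGGAtgtaagGCC
Pgr: tgtGGGAGCtgcaagGTC
Nr5a2: tgcGAAAGCtgcaagGGT
Nr2e1: tgcGACGGCtgctccGGA

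The Thra bases were shared letter for letter by 5 members, namely Thra, Nr1d1, Nr1i3, Rxra and Nr4a1, although these belong to subfamilies NR1, NR2 and NR4. In Thra they lie on the plus strand of chromosome 11 and are split by an intron into chr11:98757009-98757023 and chr11:98760876-98760878. In Nr2f1 they lie in a single coding exon on the minus strand, at chr13:78198259-78198276, and in Esrrg in a single coding exon on the plus strand, at chr1:188043710-188043727. Of the 43 members with a P-box, 15 had it split between exons. These were the thyroid hormone, retinoic acid, PPAR, Rev-erb and ROR receptors together with Nr1h4, Nr5a1 and Nr5a2. The intron followed base 15 in each of them except Nr1h4, where it followed base 16. The other 28 members had it within one exon. Nr0b1 and Nr0b2 gave no match, and both are known for lacking a DNA-binding domain.

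The recovered reads ranged from 24245788 to 29383610 per library. The RNA of Lmx1b itself, counted over the whole gene, did not separate the genotypes and so did not check the labels. It had 1257, 1401 and 1455 normalized counts in cKO and 1368, 1352 and 1474 in control, a log2 fold change of -0.03 ± 0.07 (SE). Markers of mdDA neurons were present in every library, with summed normalized counts of 10570 to 11135 in cKO and 11127 to 12965 in control. At an unadjusted p under 0.05 (limma), 4 of 12 mdDA genes were lower in cKO and 1 was higher, where 1.62% of all genes tested were lower and 1.17% higher. Of 8 midbrain genes, 2 were lower and 1 (Lhx1) was higher. The 2 lower genes, En1 and En2, are on both lists and so are counted in each. Among markers of other tissues, 1 of 11 bone and mesenchyme genes, 2 of 8 blood genes and 3 of 5 forebrain genes were higher. Both tested hindbrain genes, Fev and Slc6a4, were lower, while the Hox genes and Egr2 of that list had too few counts to be tested. None of the 7 vascular, 4 choroid plexus or 8 cycling cell genes reached that p. In each of these lists, 0 genes passed an adjusted p under 0.05. The bone and mesenchyme sum was 15685 in cKO library c and 1520 to 3360 in the other 5. Fits below with this sum as a covariate therefore rest mostly on cKO library c. They are not separate evidence from leaving that library out. The forebrain sum was 3265 in cKO library b and 1711 to 2489 in the others, and the cycling cell sum was 6989 in control library a and 4315 to 5757 elsewhere.

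The E14.5 midbrain held a wide range of receptors, at very unequal levels. By mean normalized count, 8 members stood at 1000 or more, 20 between 100 and 1000, 7 between 10 and 100 and 7 below 10. Levels of different genes were compared as the mean normalized count per kilobase of summed exon length. The thyroid hormone receptor alpha gene Thra stood at 3732 per kilobase, a level that only 1.03% of genes exceeded, against a median of 34.3 over all genes of the table. Thra alone made up 38.8% of the per-kilobase level of the whole family. The COUP transcription factors Nr2f1, at 1406 per kilobase, and Nr2f2, at 779, followed. Both are known for patterning the developing brain. Then came the shared partner Rxrb at 582 and the orphan oestrogen-related receptor Esrrg at 574. Nr2c2 (TR4) stood at 451, the oxysterol receptor Nr1h2 (LXR beta) at 313 and the third COUP gene Nr2f6 at 312. The 4 highest members made up 67.5% of the family's per-kilobase level. Of the 41 pairs of neighbours in this order, 8 did not overlap between their 6 libraries each. Thra (3487 to 3888 per kilobase) stood clear of Nr2f1 (1241 to 1666), and Nr2f1 of Nr2f2 (714 to 868). Rxrb (556 to 615) and Esrrg (538 to 591) overlapped.

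**Figure D1:**
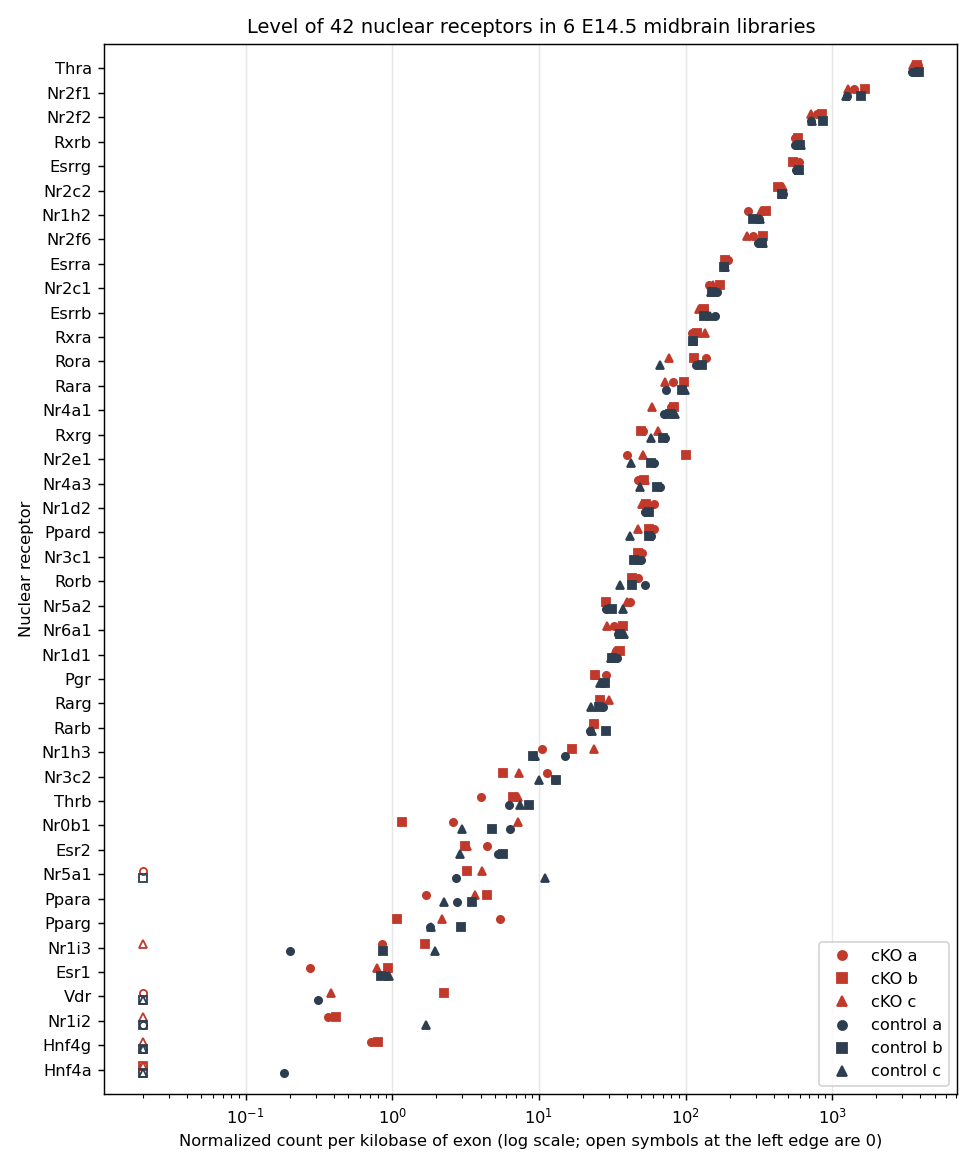
Level of each of the 42 nuclear receptors, as normalized count per kilobase of exon on a log axis, with one symbol per library in red for cKO and dark blue for control (the symbol shape gives the replicate letter). Libraries at 0 are drawn as open symbols at the left edge. The order runs from Thra at 3732 to Hnf4a at 0.0305, and the colours intermix throughout.

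Grouped by P-box, the type read from the Thra bases (codons for glutamate, glycine and glycine) was carried by 26 listed members, 25 of them in the table, which made up 62.7% of the family's per-kilobase level. The type of the 3 COUP genes, with a serine codon at the end, made up 25.9%. The type of the 3 oestrogen-related receptors made up 9.33%. The types of the 3 steroid receptors in the table (0.879%) and of the oestrogen receptors (0.0508%) made up little. The shares describe levels of RNA in whole dissected tissue, in which fewer cells of a type and less RNA per cell cannot be told apart.

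At the low end, 7 members stood below a mean of 10. Pparg had normalized counts of 15.9, 3.17 and 6.49 in cKO libraries a, b and c and 5.31, 8.65 and 5.40 in the control libraries. Nr0b1 (DAX1), the most abundant of its class, had 4.68, 2.11 and 12.99 against 11.5, 8.65 and 5.40. Nr1i3 (CAR), the most abundant of the vitamin D and xenobiotic receptors, had 3.75, 7.40 and 0 against 0.885, 3.84 and 8.64, and 74.9% of its exon bases also belong to Tomm40l on the opposite strand. The groups overlapped for all 3. The vitamin D receptor gene Vdr had 12.7 in cKO library b, 2.17 in cKO library c, 1.77 in control library a and 0 in the other 3. Nr1i2 (PXR) did not exceed 4.32 in any library. Hnf4g, the more abundant of the HNF4 genes, known from liver and gut, had 1.87, 2.11 and 0 in cKO and 0 in each control library. Hnf4a had a single read over all 6 libraries. At 3 reads per library or fewer, Hnf4a and Hnf4g were at the counting floor in both groups, Vdr in the control group and Nr1i2 in the cKO group, so no fold is given for any of them.

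The promoters of the members were described by their CpG pairs, which are common in promoters of widely used genes. CpG pairs (the letters CG, the same on either strand) were counted in windows from 250 bases before to 50 after each RefSeq start on GRCm38.p6. Of 41 members with a window, 30 (73.2%) had one with at least 10 CpG pairs, and so had 45.8% of all 27025 genes with a window. The share was 21 of 26 among members with a mean of at least 100, 6 of 6 between 10 and 100, 3 of 6 below 10 and 0 of 3 for the members without a row. Shown for contrast are the 250 bases before the start of the abundant Nr2c2 (chr6:92092183-92092432, plus strand) and of the scarce Nr1i2 (chr16:38294825-38295074, minus strand), with CpG pairs in capitals.
Nr2c2: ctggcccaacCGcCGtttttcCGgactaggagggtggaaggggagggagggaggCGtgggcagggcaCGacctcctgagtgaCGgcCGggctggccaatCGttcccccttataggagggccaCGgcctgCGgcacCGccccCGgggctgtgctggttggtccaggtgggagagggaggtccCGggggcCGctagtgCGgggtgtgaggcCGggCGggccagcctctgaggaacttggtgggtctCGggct
Nr1i2: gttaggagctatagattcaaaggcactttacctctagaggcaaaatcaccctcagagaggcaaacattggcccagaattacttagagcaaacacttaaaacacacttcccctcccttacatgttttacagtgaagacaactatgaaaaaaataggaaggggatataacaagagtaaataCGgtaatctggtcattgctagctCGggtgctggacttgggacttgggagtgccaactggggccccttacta
The 300-base windows held 20 CpG pairs for Nr2c2 and 2 for Nr1i2. Nr2f2 also had only 2 CpG pairs in its single window, at a level of 779 per kilobase. The 250 bases before that start (chr7:70366747-70366996) overlapped an exon of B130024G19Rik. The Nr2f2 P-box lay in exon 1 of its transcript, at chr7:70360027-70360044, and no start near that exon had a window. The CpG counts describe the letters only.

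The comparison of cKO with control asked whether removing Lmx1b in Pitx3-positive neurons changed receptor RNA in the midbrain. No receptor differed beyond the spread between libraries. Of the 35 members tested, 0 had an unadjusted p under 0.05 with limma on voom weights, and 0 with limma-trend. Over all 16995 genes tested, 1.62% were lower and 1.17% higher in cKO at that p, together 2.78%, and 0 of 35 members lies close to that share. After Benjamini-Hochberg adjustment 0% of all genes were called, and the smallest adjusted p was 0.9999 both among members and among all genes. The groups of libraries overlapped for all 35, while the groups did not overlap for 3.72% of all genes in the direction lower in cKO and for 3.88% in the direction higher. The exact two-sided permutation test of single members, which cannot go below 0.1 with 3 libraries against 3, gave 0.2 or more for each of the 42 members.

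The fold changes, taken over all cells of the dissected midbrain, were small. A change confined to Pitx3-positive neurons was not measured apart from the other cells. In cKO, 17 tested members were lower and 18 higher, with a median log2 fold change of 0.01, against 0.00082 over all genes. The median absolute log2 fold change was 0.09 for members and 0.07 for all genes. The range ran from -0.60 for Esr1 to 0.50 for Nr1h3, both at low counts. Without cKO library a the value of Esr1 was -0.06, and without cKO library b it was -0.91. For 25 of the 35 (71.4%) the 95% interval lay within 1.5-fold either way, and for all genes this share was 70.7%. Among the better counted members, at a mean of 100 or more, 25 of 28 lay within it, the others being Rora, Rxrg and Nr2e1, and 93.1% among all genes of that level. By subfamily, 3 NR1 members were lower and 10 higher, 4 NR2 members lower and 5 higher, 6 NR3 members lower and 2 higher, and both NR4 members lower, and the difference between subfamilies was not tested. Leaving out each library in turn turned the sign of 15 members and kept that of 20.

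**Figure D2:**
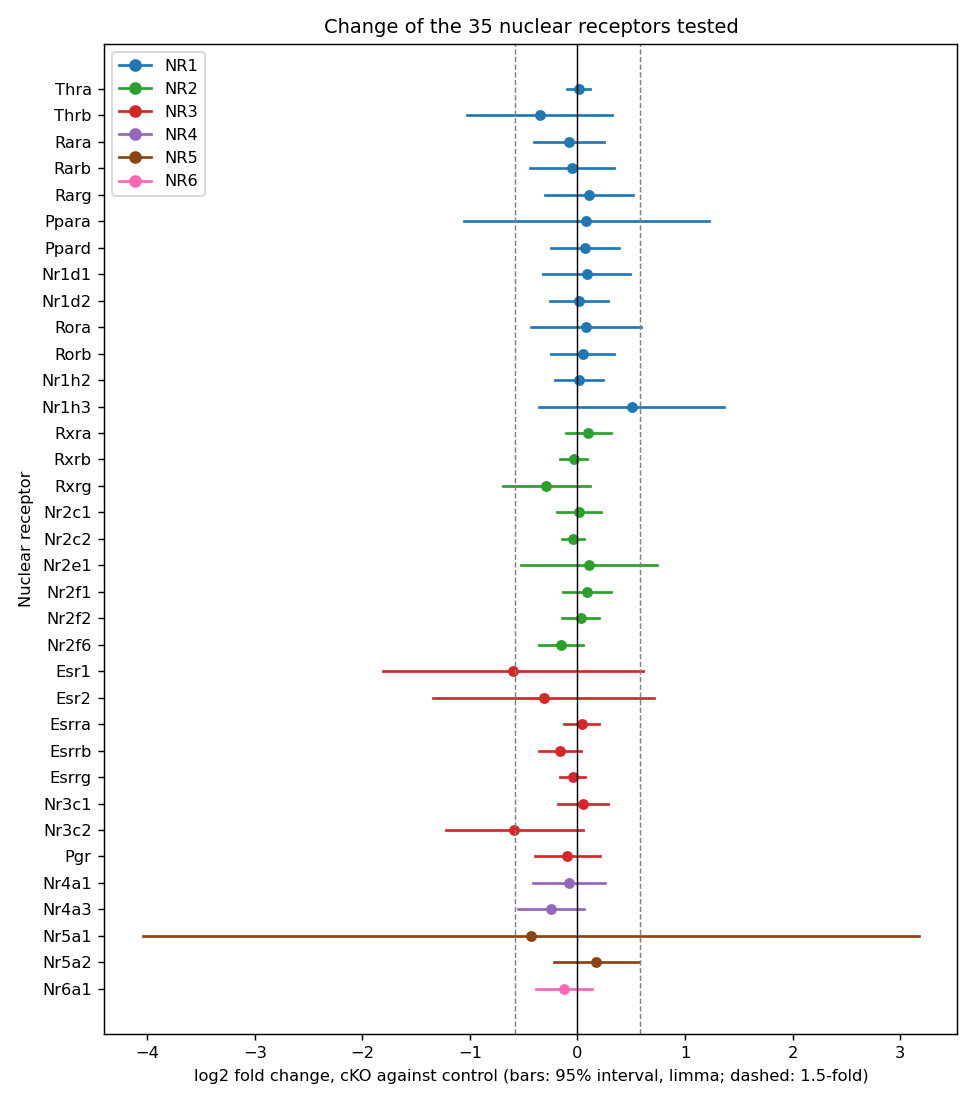
Log2 fold change, cKO against control, of the 35 receptors tested, with 95% intervals from limma and coloured by subfamily. Dashed lines mark 1.5-fold. Every interval crosses 0, and the widest is that of Nr5a1, from -4.04 to 3.17.

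Among the receptors for thyroid hormone, Thra had normalized counts of 17811, 17600 and 16402 in cKO and 16090, 17940 and 17484 in control. The groups overlapped, the log2 fold change was 0.01 ± 0.05 (SE), and the 95% interval ran from 0.934-fold to 1.09-fold. Thra and the clock repressor gene Nr1d1 lie tail to tail on chromosome 11 and share 263 exon bases on opposite strands, and whether counting used strand was not given in the sources used here. Thrb was scarce, with a mean of 44.2 ± 12.5 (SD, n = 3) in cKO and 54.8 ± 8.70 in control.

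The retinoic acid receptor gene Rara had 359, 426 and 316 in cKO and 322, 415 and 434 in control, and its log2 fold change was -0.08 ± 0.15 (SE), and -0.22 (without control library a) to 0.02 (without cKO library c) when a library was left out. Rarb (124.5 ± 1.09 against 130 ± 17.5, SD, n = 3) and Rarg (117 ± 10.1 against 108 ± 9.90) overlapped likewise, and 34.1% of the exon bases of Rarb also belong to Top2b. Among the fatty acid receptors, Ppard had 457, 423 and 358 in cKO and 437, 424 and 317 in control, so the spread within each genotype exceeded the distance between their means. Ppara stood near the minimum, at means of 12.5 and 10.9.

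Nr1d2 (Rev-erb beta), a repressor of the circadian clock, had 331, 293 and 274 in cKO and 285, 306 and 299 in control. The log2 fold change was 0.02 ± 0.12 (SE). Its activating counterpart Rora, known for cerebellar and thalamic development, had 1804, 1494 and 1012 in cKO and 1542, 1698 and 868 in control. Rora was thus lowest in library c of each genotype, the library with the smallest size factor, and the part of depth in this was not tested. The highest library held 2.08 times the count of the lowest. Rorb had 528, 479 and 494 against 584, 475 and 394.

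Of the oxysterol receptors, Nr1h2 had 897, 1187 and 1105 in cKO and 1066, 974 and 1076 in control. Its log2 fold change was 0.02 ± 0.10 (SE). Nr1h3 (LXR alpha) had 26.2, 42.3 and 59.5 in cKO and 38.1, 23.1 and 23.8 in control, a log2 fold change of 0.50 ± 0.39 (SE) at an unadjusted p of 0.225 (limma). Its highest count was in cKO library c, the library with the high bone and mesenchyme sum. With that sum as a covariate, which rests mostly on library c, the log2 fold change was 0.20. Without cKO library a the change of Nr1h3 was 0.84 at an unadjusted p of 0.0482 (limma). Without cKO library c it was 0.24, with p up to 0.578.

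The RXR genes, whose products pair with the receptors for thyroid hormone, retinoic acid, oxysterols and fatty acids, had overlapping groups. Rxrb had 2224, 2315 and 2309 in cKO and 2208, 2382 and 2442 in control, a log2 fold change of -0.04 ± 0.06 (SE). Rxra had means of 665 ± 67.2 and 616 ± 2.06 (SD, n = 3). Rxrg had 118, 114 and 149 against 167, 160 and 133, at a log2 fold change of -0.29 ± 0.18 (SE) and an unadjusted p of 0.142 (limma). With the bone and mesenchyme covariate the change of Rxrg was -0.45 at an unadjusted p of 0.0773 (limma). The groups overlapped by 1 cKO library.

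Nr2c2 had 6620, 6390 and 6932 in cKO and 6896, 6777 and 6838 in control. Its interval ran from 0.907-fold to 1.04-fold, and 30.7% of its exon bases also belong to Mrps25 on the opposite strand. Its relative Nr2c1 had means of 720 ± 66.3 and 710 ± 35.2 (SD, n = 3).

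Nr2f1 and Nr2f2 followed Thra in level per kilobase. Nr2f1 had 7159, 8485 and 6506 in cKO and 6473, 8023 and 6322 in control, and Nr2f2 had 6749, 7377 and 6227 against 6154, 7490 and 6329. Both were highest in library b of each genotype, though the letter pairs no libraries across genotypes. The difference between libraries of a genotype was larger than that between genotypes. The log2 fold changes were 0.09 ± 0.10 and 0.03 ± 0.08 (SE). With the bone and mesenchyme sum as a covariate, that of Nr2f1 was 0.24 at an unadjusted p of 0.0379 (limma), whereas leaving out a library gave -0.01 (without cKO library b) to 0.20 (without control library b). Nr2f6 had 860, 1007 and 779 in cKO and 931, 992 and 1011 in control, a log2 fold change of -0.15 ± 0.10 (SE). Without cKO library b the change of Nr2f6 was -0.25 at an unadjusted p of 0.0211 (limma), but without cKO library c it was -0.07, with p up to 0.465, and with the same covariate -0.01. Ocel1 shares 54.4% of the exon bases of Nr2f6.

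Nr2e1 (TLX), a regulator of neural stem cells best known in forebrain and retina, had 147, 373 and 191 in cKO and 227, 215 and 158 in control. The value of 373 was in cKO library b. That library also held the highest forebrain sum, 3265 against 1711 to 2489 in the other 5. The part of forebrain tissue in the Nr2e1 value was not tested. Without cKO library b, the log2 fold change of Nr2e1 moved from 0.11 to -0.27. It was 0.42 without cKO library a, 0.46 with the bone and mesenchyme covariate and 0.22 with the cycling covariate.

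Among the oestrogen-related receptors, regulators of mitochondrial genes, Esrrg had 3667, 3340 and 3514 in cKO and 3528, 3658 and 3669 in control. The interval of its fold ran from 0.895 to 1.05. Esrra had the smallest spread of the members with a mean of at least 100, between 800 and 851 in the 6 libraries. Esrrb had 813, 808 and 741 in cKO and 958, 805 and 881 in control. Only control library b lay within the range of the cKO libraries. The log2 fold change of Esrrb was -0.16 ± 0.09 (SE) at an unadjusted p of 0.0979 (limma), and without control library b it was -0.23 at an unadjusted p of 0.0341. Without control library a it was -0.09, and the p of Esrrb reached 0.34 when a library was left out. The oestrogen receptors themselves were scarce. Esr2 had 14.99, 10.6 and 10.8 in cKO and 17.7, 19.2 and 9.72 in control, and Esr1 had means of 9.08 and 12.3.

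Of the steroid receptors, the glucocorticoid receptor gene Nr3c1 had 386, 366 and 373 in cKO and 381, 340 and 366 in control, a log2 fold change of 0.05 ± 0.11 (SE). The progesterone receptor gene Pgr had means of 219 ± 22.1 and 234 ± 11.3 (SD, n = 3). The mineralocorticoid receptor gene Nr3c2 had 74.0, 37.0 and 47.6 in cKO and 83.2, 84.5 and 64.8 in control. Cited after its values were seen, Nr3c2 had the smallest p of the family, 0.0675 unadjusted (limma), at a log2 fold change of -0.59 ± 0.29 (SE). The groups overlapped through cKO library a, and without that library the change was -0.88 at an unadjusted p of 0.0183 (limma). Without cKO library b it was -0.36, and the largest p over the fits that leave out a library was 0.255.

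The activity-regulated NR4A genes other than Nurr1 were lower on average in cKO, without passing the test. Nr4a1 (Nur77) had 281, 292 and 207 in cKO and 250, 277 and 298 in control. Its log2 fold change of -0.08 turned to 0.07 without cKO library c and to 0.12 with the bone and mesenchyme covariate. Nr4a3 (NOR1) had 286, 312 and 316 against 404, 385 and 292, a log2 fold change of -0.25 ± 0.14 (SE) at an unadjusted p of 0.109 (limma). Control library c lay among the cKO libraries, and without it the change was -0.38 at an unadjusted p of 0.0144 (limma). Without control library a the change of Nr4a3 was -0.15, and its p reached 0.333 when a library was left out. The sum of both genes was 564 ± 40.3 in cKO and 635 ± 39.3 in control (SD, n = 3).

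Of the NR5A genes, Nr5a2 (LRH-1) had 245.5, 169 and 236 in cKO and 170, 187 and 221 in control, a log2 fold change of 0.18 ± 0.18 (SE). That of Nr5a2 ran from 0.07 (without cKO library a) to 0.34 (without cKO library b) when a library was left out, and was 0.03 with the bone and mesenchyme covariate. Nr5a1 (SF-1), known from gonad, adrenal and hypothalamus, had 0, 13.7 and 17.3 in cKO and 11.5, 0 and 46.4 in control, so that each genotype held a library with no read. Nr6a1 (GCNF) had 354, 404 and 317 in cKO and 377, 387 and 409 in control.

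**Figure D3:**
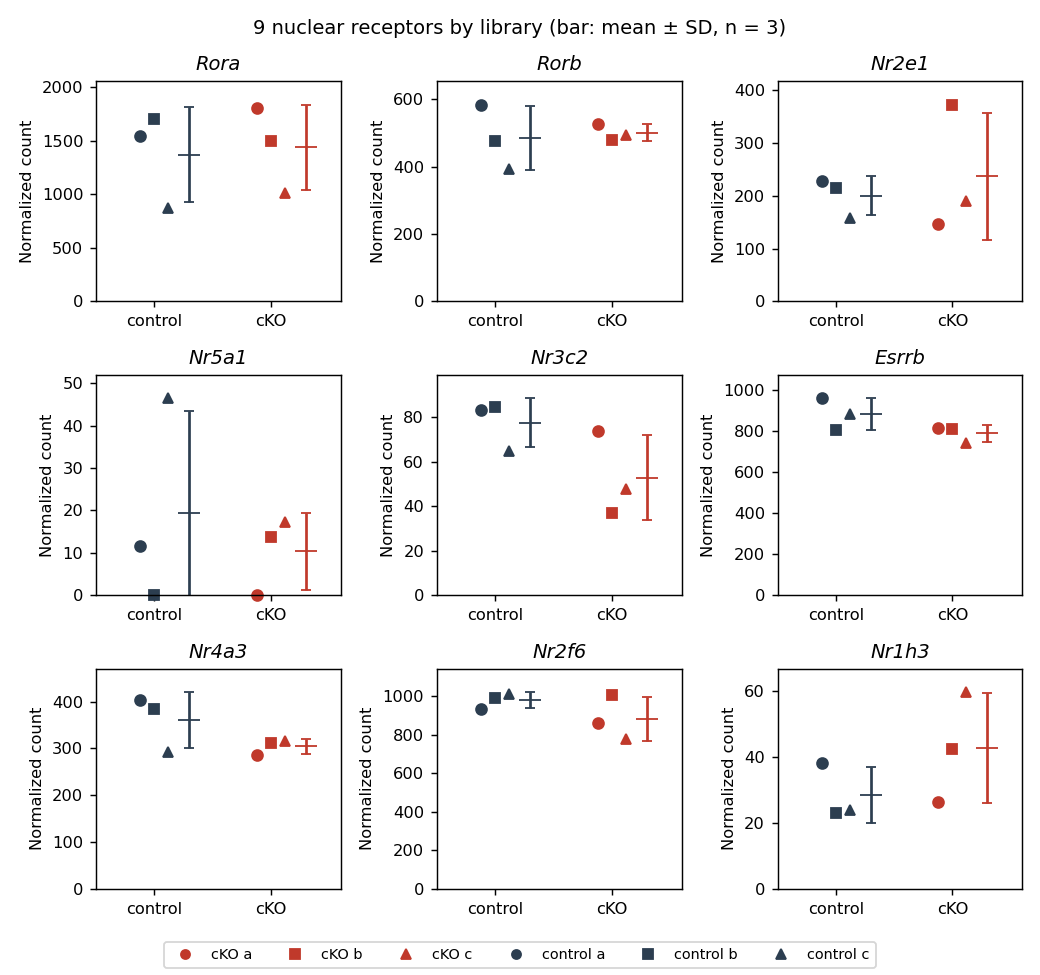
Normalized counts per library of 9 receptors chosen after their values were seen, for a small p or a wide spread, with the mean and SD of each genotype (n = 3) beside the symbols. Each vertical axis starts at 0. In all 9 the symbols of cKO and control overlap, Nr2e1 has a single high cKO library at 373, and Nr5a1 has a library at 0 in each genotype.

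Summed by subfamily, the NR1 members held 21813 ± 1186 normalized counts in cKO and 21588 ± 1000 in control (SD, n = 3), most of them on Thra. The NR2 members held 25731 ± 1572 and 25436 ± 1659. The NR3 members held 5791 ± 238 and 6009 ± 40.7. The ratio of the sums was 1.01, 1.01 and 0.964 for these 3 subfamilies. It was 0.889 for NR4, 1.07 for NR5 and 0.916 for NR6, without a test.

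The receptors differed in how steady they were within a genotype. The SD of log2 levels within a genotype had a median of 0.13 over the 28 members with a mean of at least 100 and 0.10 over the 12763 genes of that level. Nr2e1 had the widest spread, 0.53, exceeded by 0.627% of genes, followed by Rora at 0.48 (0.862%). Nr5a2 came next at 0.25 (8.27%). The narrowest were Esrra at 0.03, which 98% of genes exceeded, and Nr2c2 at 0.04. No library was high or low throughout the family. Each library held the highest count for 4 to 8 of the 35 members and the lowest for 2 to 9.

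The genes around the receptors were read from 7 lists. Of 12 corepressors tested, which silence the targets of unliganded receptors, 0 reached an unadjusted p under 0.05 (limma), and the median log2 fold change was -0.002. Of 12 coactivators tested 0 reached it, at a median of -0.001. Among 8 thyroid hormone handling and response genes tested, 0 reached it, at a median of -0.05. Among 10 steroid receptor chaperone and response genes tested, 0 reached it, at a median of 0.01. Hsp90aa1 and Hsp90ab1 were among the genes of that list without recovered counts. Among 14 clock genes around the Rev-erb and ROR receptors, 0 reached it, at a median of 0.01.

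Of 9 retinoid genes tested, 1 was lower and 1 higher at that p, beside 1.62% and 1.17% of all genes. Aldh1a1, an enzyme that makes retinoic acid and a mark of an mdDA subset, had 981, 672 and 816 in cKO and 337, 554 and 438.5 in control. The groups did not overlap, the log2 fold change was 0.92 ± 0.18 (SE) and the unadjusted p 0.000243 (limma, adjusted p 0.9999). With the cycling cell sum as a covariate the adjusted p of Aldh1a1 was 0.00887 (limma). Dhrs3, which turns retinal back to retinol, had 214.5, 281 and 287 in cKO and 422, 319 and 274 in control. Its groups overlapped, and its unadjusted p of 0.0495 (limma) became 0.233 without control library a.

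Of 14 LXR and PPAR response genes tested, 12 were lower in cKO, the median log2 fold change was -0.13, and 4 were lower and 0 higher at an unadjusted p under 0.05 (limma), where 1.62% and 1.17% of all genes were. At an adjusted p under 0.05, 0 were called. Fabp7, a fatty acid binding protein of radial glia, had 12102, 12784 and 12896 in cKO and 14024, 13675 and 13475 in control. Its groups did not overlap, and the unadjusted p of 0.00982 (limma) reached 0.0479 at most when a library was left out. Cpt1a, which brings fatty acids into mitochondria, had 765, 744 and 819 in cKO and 860, 866 and 958 in control. Mylip (IDOL), which marks the LDL receptor for breakdown, had 206, 190 and 218 against 263, 304 and 225. The groups did not overlap for either gene, at unadjusted p of 0.0319 and 0.0341 (limma). Srebf1, a regulator of lipid synthesis, had 1033, 1223 and 1093 against 1342, 1151 and 1359, and its groups overlapped. The p of Cpt1a stayed under 0.05 in 3 of the 6 fits that leave out a library, and that of Mylip and of Srebf1 in 2 of 6. With the bone and mesenchyme sum as a covariate, the p of Srebf1 was 0.19 and that of Mylip 0.0537 (limma, unadjusted). Abca1 and Abcg1, the cholesterol exporters that LXR is best known for, had log2 fold changes of -0.02 and -0.003.

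**Figure D4:**
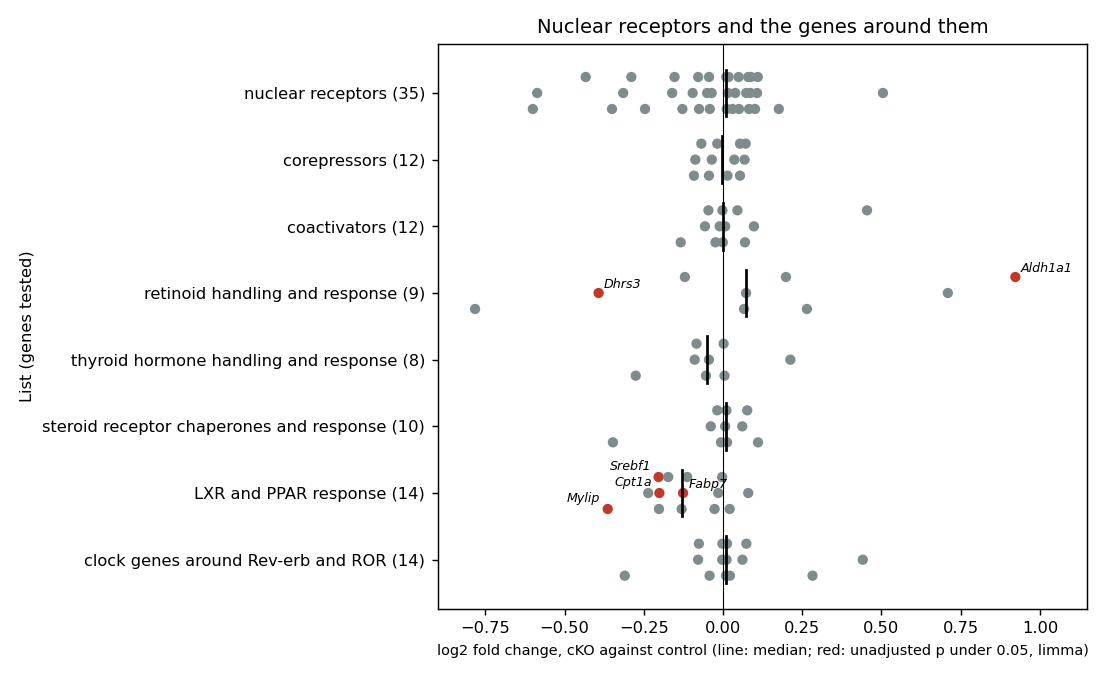
Log2 fold change, cKO against control, of the 35 receptors tested and of the tested genes of 7 surrounding lists, with one point per gene, a line at each median and red for an unadjusted p under 0.05 (limma). The receptors hold no red point, the LXR and PPAR response list holds 4 red points left of 0, and the retinoid list holds Aldh1a1 at 0.92 and Dhrs3 at -0.39.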

How the data were processed

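Paired-end RNA-seq of 3 cKO and 3 control libraries was analysed from a single table. Per the labels' processing notes, the submitters used TopHat 1.0.14, Bowtie2 2.1.0, HTSeq 0.6.1p1 and DESeq 1.10.1, and the paper gives Ensembl GRCm38.p4 as the genome. The values deposited by the authors are a signal per gene, the mean over a genotype of read counts divided by each library's size factor. The columns of ratios, p-values and ranks hold the authors' own comparison and were not used. Lines that name no gene (31.8% of all mean counts, with ambiguous reads at 0.913% of all) were left out.

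Counts per library were recovered by searching for the whole numbers whose scaled mean equals each deposited mean, with sums up to 60000 reads. This gave 26670 genes (99.3%), which hold 81.6% of the normalized counts, and all 42 members in the table. Of 4000 simulated means 3999 were recovered, while 11 of 2000 decoy means that no counts had made also had an answer. The recovered reads are estimates and measure depth only for recovered genes. Intervals over libraries cover the spread between pooled pairs of embryos.

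The test was limma (version 3.58.1, R 4.3.3) with voom weights and genotype as the only term, scaled by the recovered size factors, on the 16995 genes whose mean reached 10 normalized counts, and p-values were adjusted over all of these by Benjamini-Hochberg. The test was checked on simulated counts. The authors' count model was not rerun. Exon lengths, overlaps and P-box bases came from GENCODE M21, translated to find the domain (the design named RefSeq proteins, which were not used here), and promoter windows from RefSeq. Given by library were members with p under 0.05 or without overlap (none) and the most abundant member of each class per kilobase, and from the pathway lists the genes with p under 0.05. Other members given by library were chosen after their values were seen. The members and lists were chosen with earlier results of these data known. Alternatives were other minimum means, limma-trend, other scalings, a threshold of 0.01, covariates for bone and mesenchyme or cycling genes, leaving out each library, and the longest transcript as gene length.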

Additional observations from a re-analysis of the deposited data

How the results depend on the processing

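No paired analysis was possible because the header numbers the libraries of both genotypes N1 to N3, but the deposited columns are means over each genotype and the recovered libraries cannot be tied to those numbers. The count of receptors past an adjusted p under 0.05 was 0 under each alternative run. The count at an unadjusted p under 0.05 was 0 with minimum means of 50 or none, limma-trend, either other scaling, the cycling covariate and a threshold of 0.01, 1 with the bone and mesenchyme covariate (Nr2f1), and 0 to 2 when a library was left out (2 without cKO library a). The median log2 fold change of the receptors ran from -0.049 (without cKO library b) to 0.019 when a library was left out, and the mean was -0.059, while the median moved between libraries by an SD of 0.03. Over all genes, counts lower in cKO at an unadjusted p under 0.05 were 525 without a minimum mean and 44 at a threshold of 0.01, against 275. Counts higher were 450 without a minimum, 317 with the cycling covariate and 26 at a threshold of 0.01, against 198, and ran from 130 (without control library c) to 279 when a library was left out. With the bone and mesenchyme covariate, 312 of 16995 genes were lower and 234 higher at an unadjusted p under 0.05 (limma). Without cKO library a, 246 were lower and 232 higher. At an adjusted p under 0.05, 1 gene (Aldh1a1) was called with the cycling covariate and 0 to 3 when a library was left out (3 without control library a). The cause of these shifts was not tested, apart from the number of genes tested and the threshold, which the alternatives themselves change. With the longest transcript as gene length, Thra (7023 per kilobase), Nr2f1 (2233) and Nr2f2 (1592) kept their order, and Nr2c2 (882) passed Rxrb (881) and Esrrg (663). The intervals of the 7 tested members below a mean of 100 reached past 1.5-fold, as did those of Rora, Rxrg and Nr2e1 above it, and the part of depth in this was not tested.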
